A study of Mus musculus with 25 samples.

Results

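The cytosolic heat shock genes described here are Hspa1a, Hspa1b, Hspa8, Hsph1, Dnajb1, Hsp90aa1, Hsp90ab1, Hspb1, Bag3 and Hsf1, chosen by gene symbol and followed through every mouse retina library of the study. All 10 were listed in each of the 5 expression tables, among 18440 genes that the tables share. The low value filter asked for 1 FPKM or more in 5 or more of the 25 libraries; it kept 13117 genes, all 10 among them. Levels below are in FPKM, which scales a gene's fragments to its length and to the depth of the library.

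The cytosol holds a chaperone system of its own, separate from that of the ER. Hsp70 proteins bind exposed stretches of unfolded protein and release them when bound ADP is exchanged for ATP; J-domain proteins such as Dnajb1 bring the client and trigger ATP hydrolysis, and exchange factors such as Hsph1 and Bag3 let the nucleotide go. Hsp90 takes over clients that are closer to their final fold, and small heat shock proteins such as Hspb1 hold unfolded protein without ATP. Hsf1 is the transcription factor that turns most of these genes on when unfolded protein accumulates in the cytosol or the nucleus, by binding inverted GAA repeats called heat shock elements. The ER stress response, which tunicamycin and ATF6 act on, runs through other factors and other promoter elements.

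All libraries came from retinas of wild-type C57BL/6J mice that received 1 µL into the vitreous of both eyes at postnatal day 30. Of the 5 groups, 1 received tunicamycin, a blocker of N-glycosylation used as the positive control for ER stress, 1 received Ceapin-A7, an ATF6 inhibitor, and 1 received AA147, an ATF6 activator, each at 10 µM. The other groups were vehicle set 2 and vehicle set 1, whose treatment label reads PBS, while the protocol gives saline with 0.05 to 0.1% DMSO. Each group had 5 libraries. Cornea and lens were removed before RNA extraction. The columns of the compounds name 24 h; those of the vehicles name no time, and the series names 24 h, 3 d and 7 d, so time and compound cannot be told apart. Nothing states that the libraries came from separate animals, so p-values measure the spread between libraries. In bulk retina, fewer cells of a type and less RNA per cell cannot be told apart. The tables of tunicamycin, Ceapin-A7 and vehicle set 2 list one set of genes and those of AA147 and vehicle set 1 another, so each compound was set against the vehicle set with its own gene list.

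The libraries also differed within groups, and in part between them. The depth, estimated from the spacing of small values, lay between 15.26 and 25.2 M fragments (median 23.4 M). The 10 rod markers were all present in every group, and their summed level was lowest in vehicle set 2 libraries 5 and 4, at 15652 and 16539 FPKM, and in tunicamycin library 1, at 16036 FPKM. Vehicle set 2 libraries 4 and 5 also stood apart in 2 genes named after their values were seen. Glul, the glutamine synthetase of Muller glia, stood at 254 and 330 FPKM against 624 to 1024 FPKM in libraries 1 to 3. The stress-induced transcription factor Atf3 stood at 28.6 and 20.7 FPKM against 4.86 to 6.40 FPKM. All 8 Muller glia markers summed to 1217 and 1415 FPKM in libraries 4 and 5, against 1539 to 2214 FPKM in libraries 1 to 3. Glul is part of that sum, so the sum gives no level for the other Muller glia markers. All 12 lens markers were detected in spite of the dissection, with a summed level of 6.51 to 14602 FPKM in tunicamycin, 91.5 to 9618 FPKM in Ceapin-A7, 11.4 to 1066 FPKM in AA147, 8.60 to 5341 FPKM in vehicle set 2 and 101 to 1439 FPKM in vehicle set 1. The sum of the 4 Y-linked genes listed was under 0.1 FPKM in vehicle set 2 libraries 1 to 4 and 75.7 FPKM in library 5, against 45.9 to 76.4 FPKM in all 5 tunicamycin libraries. In vehicle set 1 that sum was 56.6 to 79.0 FPKM. In AA147 it was 70.2 to 77.1 FPKM in libraries 1 to 3, and 0.31 and 0.17 FPKM in libraries 4 and 5.

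The genes fell into 3 tiers of level. Hspa8, the constitutive Hsp70 known as Hsc70, Hsp90aa1, the stress-responsive Hsp90, and Hsp90ab1, the constitutive Hsp90, were the high tier. Their group means ran from 499 to 741 FPKM for Hspa8, from 570 to 679 FPKM for Hsp90aa1 and from 248 to 387 FPKM for Hsp90ab1. The inducible Hsp70 genes Hspa1a and Hspa1b, with Hsph1, Dnajb1, Hsf1 and Hspb1, had group means between 7.87 and 32.02 FPKM. Bag3, a co-chaperone that links Hsp70 to autophagy, was lowest, with group means of 3.28 to 5.93 FPKM.

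**Figure D1:**
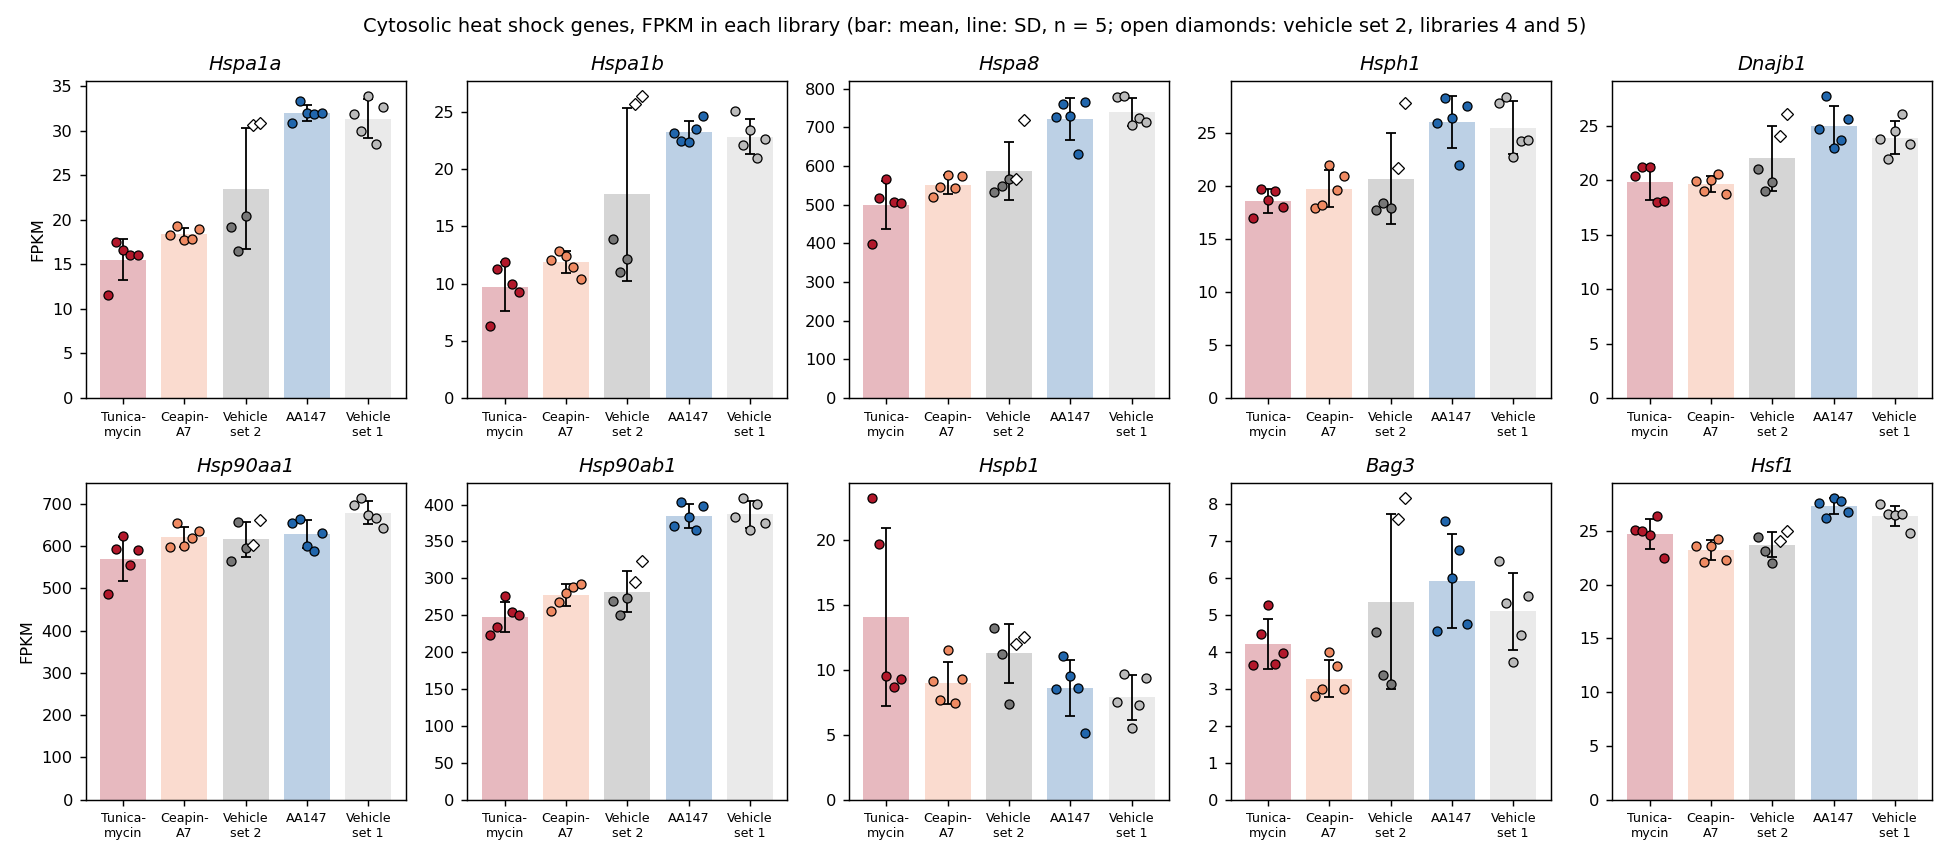
FPKM (y axis, linear, from 0) of the 10 genes in all 25 libraries, with groups along the x axis; bars are means, vertical lines are SD with 5 libraries a group, circles are libraries and open diamonds mark vehicle set 2 libraries 4 and 5. For Hspa1a and Hspa1b the open diamonds lie at 30.67 and 30.85 FPKM and at 25.66 and 26.36 FPKM, near AA147 and vehicle set 1, while vehicle set 2 libraries 1 to 3 lie near tunicamycin and Ceapin-A7.

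Hspa1a and Hspa1b, the 2 stress-inducible Hsp70 genes, lie next to each other on chromosome 17 and are nearly the same gene. Their coding sequences were identical at 1918 of 1926 aligned bases, or 99.6%, and 38.1% of the 150-base windows of the Hspa1a transcript occurred unchanged in Hspa1b, so the division of reads between them is uncertain and their sum is given too. The 250 bases before the start site differed at 3 positions. Both are shown because these genes gave the clearest differences below; sequences are RefSeq's on GRCm38.p6, an earlier build than the GRCm39 named for the expression tables, and capitals mark the heat shock element pairs GAANNTTC or TTCNNGAA, each of which reads the same on the other strand.
Hspa1a, chr17:34972157-34972406, minus strand: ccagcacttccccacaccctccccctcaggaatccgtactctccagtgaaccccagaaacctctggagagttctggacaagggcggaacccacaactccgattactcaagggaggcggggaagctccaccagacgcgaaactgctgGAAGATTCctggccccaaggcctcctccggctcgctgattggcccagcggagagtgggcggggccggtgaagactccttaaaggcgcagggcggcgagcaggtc
Hspa1b, chr17:34959239-34959488, minus strand: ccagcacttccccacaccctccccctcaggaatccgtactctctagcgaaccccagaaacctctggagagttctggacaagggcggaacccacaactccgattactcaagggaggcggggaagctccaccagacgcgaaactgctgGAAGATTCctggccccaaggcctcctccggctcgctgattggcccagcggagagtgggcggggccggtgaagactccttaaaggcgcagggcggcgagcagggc
The capitals begin 104 bases before the start in both genes. Hsph1 on chromosome 5, with a pair that begins 33 bases before its start, and Hspb1, also on chromosome 5, with pairs at 117 and 97 bases, are shown for the part around the match.
Hsph1, chr5:149636350-149636381, minus strand: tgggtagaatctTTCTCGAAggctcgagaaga
Hspb1, chr5:135887790-135887841, plus strand: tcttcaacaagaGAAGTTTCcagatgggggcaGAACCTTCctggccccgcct
Promoters were available for 6 of the 10 genes, and 4 of these 6 held such a pair before at least 1 start site, against 14.5% of 27025 genes. By promoter, it was 5 of 8, against 12.8% of 32851 promoters of the same length. The matches are not independent of each other. The same Hsph1 pair was counted at 2 start sites, 33 and 54 bases before them, and the Hspa1a and Hspa1b promoters are nearly identical. Dnajb1 and Bag3 held none of these letters. The longer form with 3 alternating units, which contains both pairs, was in 0 of the 8 and in 0.466% of all promoters. A match is a description of letters and shows no binding.

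Tunicamycin was compared with vehicle set 2 to see whether the positive control for ER stress also moved the cytosolic branch. Hspa1a and Hspa1b were lower in tunicamycin retinas, and none of the other 8 genes passed the test. Hspa1a stood at 11.55, 17.55, 16.62, 16.03 and 16.00 FPKM in the tunicamycin libraries, against 19.16, 16.48, 20.41, 30.67 and 30.85 FPKM in vehicle set 2. Hspa1b stood at 6.32, 11.27, 11.84, 9.99 and 9.23 FPKM in tunicamycin, against 13.85, 11.03, 12.17, 25.66 and 26.36 FPKM in vehicle set 2. The groups overlapped in both genes, through vehicle set 2 library 2, and the vehicle set was itself split into 3 low and 2 high libraries. The log2 difference on the log2(FPKM + 1) scale, which understates the change of low genes, was -0.54 ± 0.12 (SE) for Hspa1a (limma adjusted p = 0.00898) and -0.75 ± 0.18 for Hspa1b (limma adjusted p = 0.0105). These SE take their spread from all 25 libraries, not from the 2 compared groups alone. For Hspa1a the SD was 6.77 FPKM in vehicle set 2, but 0.67 to 2.32 FPKM in the other groups. With only the 2 compared groups in the fit, neither gene passed. The exact permutation p was 0.0238 for each gene, where 5 against 5 libraries can reach 0.00794 at the lowest. Their sum averaged 25.28 ± 4.42 FPKM in tunicamycin and 41.33 ± 14.3 FPKM in vehicle set 2 (SD, n = 5 each). The sum differed by -0.64 (exact permutation p = 0.0238). Thus 2 of the 10 genes were called, against 8.7% of all genes tested in either direction. Both were lower, against 2.81% of all genes. These 2 are nearly the same gene, with an uncertain division of reads, so they do not count as 2 independent calls against those shares.

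Both calls stayed without vehicle set 2 library 4 alone (limma adjusted p = 0.0267 for Hspa1a and 0.0307 for Hspa1b). They also stayed without library 5 alone (limma adjusted p = 0.0258 and 0.0303), but not without both libraries. This pair held the 2 highest vehicle values of both genes and was chosen from these data. Leaving it out therefore had to shrink the difference, and it left fewer vehicle libraries. Without the pair, the difference was -0.26 for Hspa1a and -0.34 for Hspa1b (limma adjusted p = 0.0764 and 0.0854). Then 0 of the 10 genes passed, while 1031 genes of all those tested did. With only the 2 groups in the fit, the limma adjusted p was 0.197 for Hspa1a and 0.206 for Hspa1b. In the other direction, with vehicle set 1 in place of vehicle set 2, the differences were -0.98 and -1.18 and 8 of the 10 genes passed, 7 lower and Hspb1 higher, but 7381 of all genes passed as well.

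**Figure D2:**
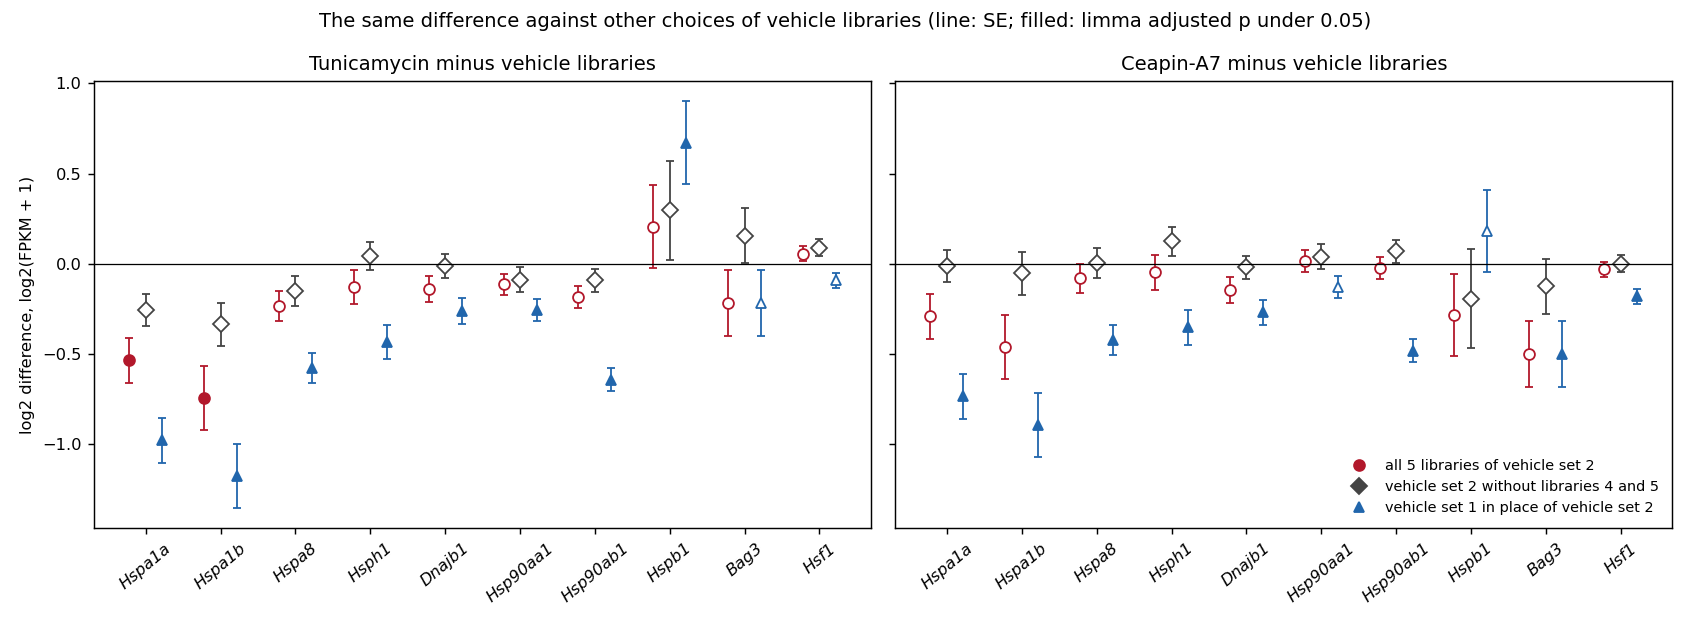
The log2 difference of tunicamycin (left) and Ceapin-A7 (right) from vehicle libraries for each gene along the x axis, against all 5 libraries of vehicle set 2 (circles), against that set without libraries 4 and 5 (diamonds) and against vehicle set 1 (triangles); vertical lines are SE and filled symbols have a limma adjusted p under 0.05. Under tunicamycin, Hspa1b lies at -0.75, -0.34 and -1.18 under the 3 choices.

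The constitutive Hsp70 gene Hspa8 showed a smaller difference that did not pass. It stood at 398.91, 518.60, 567.10, 506.02 and 504.35 FPKM in tunicamycin, against 534.13, 548.97, 566.63, 565.93 and 718.35 FPKM in vehicle set 2. Of the tunicamycin libraries, 4 lay below every vehicle library, the exception being library 3. The log2 difference was -0.23 ± 0.08 (limma adjusted p = 0.0754, exact permutation p = 0.0476); it passed with median-ratio scaling and with quantile normalization (limma adjusted p = 0.0400 and 0.0350). Hsph1, the Hsp110 exchange factor, stood at 16.98, 19.67, 18.71, 19.52 and 18.03 FPKM in tunicamycin, against 17.70, 18.36, 17.88, 21.67 and 27.85 FPKM in vehicle set 2. Its range in tunicamycin overlapped that of vehicle libraries 1 to 3, and the difference of -0.13 ± 0.10 (limma adjusted p = 0.433) became 0.04 without vehicle libraries 4 and 5.

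Of the co-chaperones, Dnajb1 stood at 20.42, 21.26, 21.23, 18.01 and 18.15 FPKM in tunicamycin, against 21.02, 19.05, 19.84, 24.05 and 26.13 FPKM in vehicle set 2. Bag3 stood at 3.66, 4.48, 5.27, 3.69 and 3.97 FPKM in tunicamycin, against 4.54, 3.38, 3.14, 7.60 and 8.18 FPKM in vehicle set 2. In both genes the 2 highest values were those of vehicle libraries 4 and 5, and the other 8 libraries overlapped. The log2 differences were -0.14 ± 0.07 for Dnajb1 and -0.22 ± 0.18 for Bag3 (limma adjusted p = 0.230 and 0.497), and without libraries 4 and 5 they were -0.01 and 0.16.

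Neither Hsp90 gene passed with tunicamycin. Hsp90ab1 stood at 223.33, 234.13, 276.33, 254.41 and 250.82 FPKM in tunicamycin, against 268.87, 249.70, 272.73, 295.66 and 323.44 FPKM in vehicle set 2, a log2 difference of -0.18 ± 0.06 (limma adjusted p = 0.0672). Hsp90aa1 ran from 487.39 to 622.98 FPKM in tunicamycin, with a median of 590.90, and from 564.16 to 661.19 FPKM in vehicle set 2, with a median of 603.75. Its difference was -0.11 ± 0.06 (limma adjusted p = 0.243). Tunicamycin library 1 was lowest of its group in 7 genes, Hspa1a, Hspa1b, Hspa8, Hsph1, Hsp90aa1, Hsp90ab1 and Bag3, and highest in Hspb1 and in the ER chaperone Hspa5, at 1513 FPKM. That library also had the largest lens sum, 14602 FPKM. A fit with the lens level as a covariate was an alternative chosen after seeing the data. In it, Hspa1a and Hspa1b differed by -0.51 and -0.70 (limma adjusted p = 0.0142 and 0.0166). The part of lens RNA in these differences was not tested.

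Hspb1, the small heat shock protein Hsp25, was the only one of the 10 genes with a group above 20 FPKM in some libraries and under 10 FPKM in others. It stood at 23.22, 19.65, 9.49, 8.64 and 9.27 FPKM in tunicamycin, against 13.17, 11.20, 7.40, 11.96 and 12.55 FPKM in vehicle set 2. The 2 high libraries, 1 and 2, held the 2 largest lens sums of the group, 14602 and 6669 FPKM. Library 5, with a lens sum of 5829 FPKM, had 9.27 FPKM of Hspb1. The part of lens RNA in the Hspb1 level was not tested. The log2 difference was 0.21 ± 0.23 (limma adjusted p = 0.624) and 0.09 with the lens covariate. Hsf1 itself ran from 22.47 to 26.38 FPKM in tunicamycin and from 21.96 to 24.97 FPKM in vehicle set 2, with a difference of 0.06 ± 0.04 (limma adjusted p = 0.422); its mRNA level says nothing of the activity of the protein.

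Ceapin-A7 was compared with vehicle set 2 to see whether ATF6 inhibition moved these genes in the absence of added ER stress. It moved 0 of the 10 genes past the threshold, and 0.0% of all genes tested, in limma; at an unadjusted p under 0.05, 1615 genes differed. Hspa1a stood at 18.26, 19.27, 17.78, 17.90 and 19.01 FPKM and Hspa1b at 12.08, 12.88, 12.40, 11.43 and 10.42 FPKM in Ceapin-A7, all below the vehicle set 2 medians of 20.41 and 13.85 FPKM given by the libraries above. The differences were -0.29 ± 0.12 and -0.46 ± 0.18 (limma adjusted p = 0.360 and 0.332; exact permutation p = 0.214 and 0.135), and -0.01 and -0.05 without vehicle libraries 4 and 5. Bag3 stood at 2.80, 3.01, 3.99, 3.61 and 3.01 FPKM in Ceapin-A7, the lowest mean of any group, and its difference of -0.50 ± 0.18 (limma adjusted p = 0.324) was -0.13 without those 2 libraries. The other 7 genes had differences between -0.28 and 0.01. The SD of Hspa1a was 0.67 FPKM in Ceapin-A7 and 6.77 FPKM in vehicle set 2, and that of Hsf1 0.93 and 1.19 FPKM.

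AA147 was compared with vehicle set 1 to see whether ATF6 activation moved these genes. Of the 10 genes, 0 were called, as were 0.0% of all genes in limma, with 246 genes at an unadjusted p under 0.05. Hspa1a stood at 30.90, 33.36, 32.01, 31.83 and 32.01 FPKM in AA147, against 31.83, 29.96, 33.89, 28.51 and 32.69 FPKM in vehicle set 1. Hspa1b stood at 23.16, 22.42, 22.34, 23.53 and 24.62 FPKM in AA147, against 25.04, 22.13, 23.44, 20.92 and 22.59 FPKM in vehicle set 1. The ranges overlapped almost fully, and the 95% interval of the log2 difference was -0.23 to 0.29 for Hspa1a and -0.34 to 0.39 for Hspa1b. Hspa8 stood at 727.53, 760.80, 728.29, 630.30 and 764.88 FPKM in AA147, against 779.16, 780.80, 706.07, 724.19 and 712.77 FPKM in vehicle set 1, with an interval of -0.21 to 0.13. Hsp90ab1 ran from 365.32 to 403.33 FPKM in AA147 and from 365.30 to 409.04 FPKM in vehicle set 1, with an interval of -0.14 to 0.12. These intervals leave room for changes of up to about those sizes in either direction. They take their spread from all 25 libraries in the fit, the split vehicle set 2 included, and not from these groups alone. For Hspa1a the SD was 0.88 FPKM in AA147 and 2.15 FPKM in vehicle set 1, but 6.77 FPKM in vehicle set 2.

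Hsp90aa1 had the lowest exact permutation p of the AA147 comparison. It stood at 655.40, 664.06, 599.51, 589.36 and 630.48 FPKM in AA147, against 697.28, 714.43, 673.90, 667.86 and 643.02 FPKM in vehicle set 1. All 5 AA147 libraries lay below the vehicle median, and 3 lay below every vehicle library. The difference was -0.11 ± 0.06 (limma adjusted p = 1.000, exact permutation p = 0.0397 without adjustment, 1 of 4 under 0.05 among the 30 exact tests of the 3 compound comparisons). Bag3 ran from 4.58 to 7.54 FPKM in AA147 and from 3.74 to 6.46 FPKM in vehicle set 1, with a difference of 0.18 ± 0.18. Hsph1, Dnajb1, Hspb1 and Hsf1 had differences of 0.03, 0.06, 0.10 and 0.05, and none passed.

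**Figure D3:**
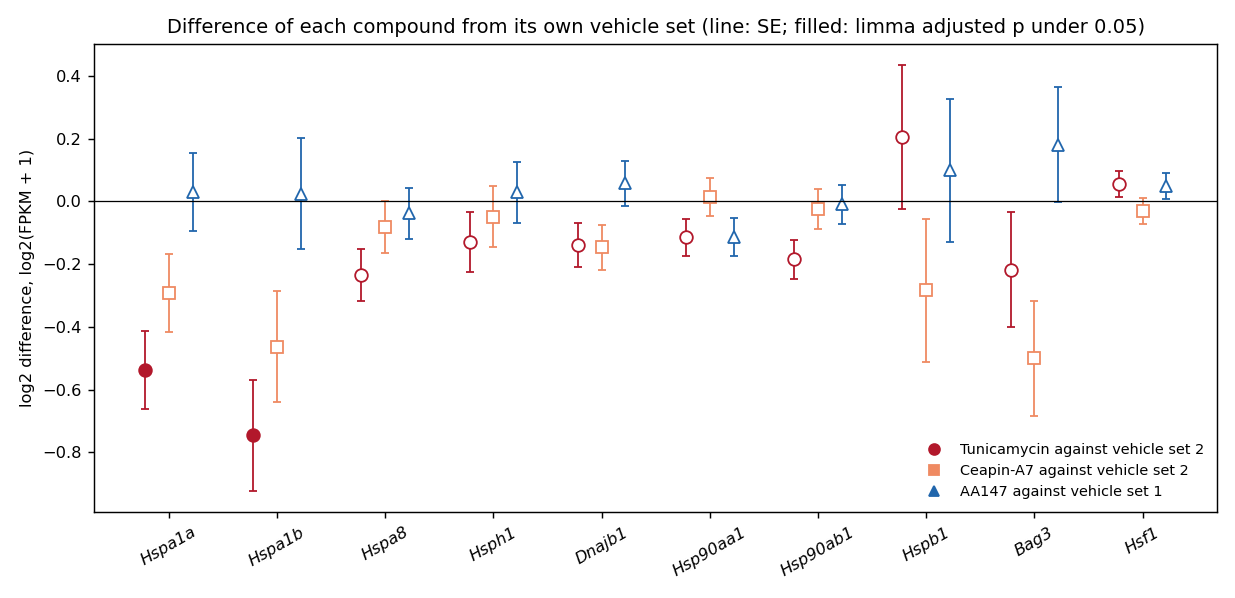
The log2 difference (y axis, on the log2(FPKM + 1) scale) of tunicamycin and Ceapin-A7 from vehicle set 2 and of AA147 from vehicle set 1, for each gene along the x axis; vertical lines are SE and filled symbols have a limma adjusted p under 0.05. Only Hspa1a and Hspa1b under tunicamycin are filled, at -0.54 and -0.75, while AA147 lies between -0.11 and 0.18 in all 10 genes.

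In no gene did a compound group lie wholly outside its vehicle set: 0 of the 10 genes had groups that did not overlap in each of these 3 comparisons, against 4.05% of all genes for tunicamycin, 1.45% for Ceapin-A7 and 0.656% for AA147. The median log2 difference over the 10 genes was -0.16 with tunicamycin, -0.11 with Ceapin-A7 and 0.03 with AA147, where the median of all genes tested was 0.013, -0.00035 and 0.0092. Tunicamycin and Ceapin-A7 share vehicle set 2, so their values here are not independent of each other.

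Tunicamycin was therefore also set against Ceapin-A7 directly, with no vehicle library in the difference itself. The limma SE still took its spread from all 25 libraries, the split vehicle set 2 included. Hspa1a was the one gene whose groups did not overlap, with 11.55 to 17.55 FPKM in tunicamycin and 17.78 to 19.27 FPKM in Ceapin-A7; 9.48% of all genes had groups that did not overlap. Its log2 difference was -0.24 ± 0.12 (limma adjusted p = 0.185), so it was not called. Hsp90ab1 came nearest to the threshold, at -0.16 ± 0.06 (limma adjusted p = 0.0870), with 223.33 to 276.33 FPKM in tunicamycin and 255.40 to 291.85 FPKM in Ceapin-A7. In all, 0 of the 10 genes were called between these compounds, against 13.3% of all genes. The change with tunicamycin, taken relative to vehicle set 2, was not called different from the change with AA147, taken relative to vehicle set 1, in any of the 10 genes, against 1.04% of all genes. The difference between those changes was -0.57 ± 0.18 for Hspa1a and -0.77 ± 0.25 for Hspa1b (limma adjusted p = 0.115 and 0.130).

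The vehicle sets also differed from each other. Vehicle set 2 was lower than vehicle set 1 in 6 genes, Hspa1a, Hspa1b, Hspa8, Hsph1, Hsp90ab1 and Hsf1, against 20.5% of all genes lower and 46.8% called in either direction. Hsp90ab1 stood at 268.87, 249.70, 272.73, 295.66 and 323.44 FPKM in vehicle set 2, against 383.07, 409.04, 365.30, 400.13 and 375.47 FPKM in vehicle set 1. It was the one gene of the 10 in which the vehicle sets did not overlap, against 33.4% of all genes, and its log2 difference was -0.46 ± 0.06 (limma adjusted p = 2.03e-06). Hspa8 differed by -0.34 ± 0.08 (limma adjusted p = 0.00136), Hspa1a by -0.44 ± 0.12 (limma adjusted p = 0.00498) and Hsf1 by -0.15 ± 0.04 (limma adjusted p = 0.00484). Hsph1 differed by -0.30 ± 0.10 (limma adjusted p = 0.0114) and Hspa1b by -0.43 ± 0.18 (limma adjusted p = 0.0495). Of the 10 vehicle libraries left out in turn, all but vehicle set 2 libraries 4 and 5 ended the Hspa1b call, as did the pseudocount of 0.1, no filter, the compared groups alone, the robust variance prior and the replicate block. Without libraries 4 and 5 together, 8 of the 10 genes were called, along with 5814 of all genes tested. The sets stand in tables with different gene lists, and set, table and any difference in collection cannot be told apart. All 4 Y-linked genes tested were also called lower in vehicle set 2 than in vehicle set 1. Their part in these differences was not tested, nor was it between AA147 and vehicle set 1.

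Across tables, 6 of the 10 genes, Hspa1a, Hspa1b, Hspa8, Hsph1, Dnajb1 and Hsp90ab1, were lower in each of the 10 tunicamycin and Ceapin-A7 libraries than in each of the 10 AA147 and vehicle set 1 libraries, and so were 10.9% of all genes tested. Hspa8, for example, ran from 398.91 to 576.71 FPKM in the tunicamycin and Ceapin-A7 libraries together and from 630.30 to 780.80 FPKM in the AA147 and vehicle set 1 libraries. For Hspa1a the group means came in the order tunicamycin 15.55 ± 2.32, Ceapin-A7 18.44 ± 0.67, vehicle set 2 23.51 ± 6.77, vehicle set 1 31.38 ± 2.15 and AA147 32.02 ± 0.88 FPKM (SD, n = 5 each). In that order AA147 and vehicle set 1 overlapped, vehicle set 2 overlapped its neighbours on both sides, and tunicamycin and Ceapin-A7 did not differ past the threshold. The order runs across tables, so compound and table cannot be told apart in it. For Hspa1a the log2 difference was 0.03 between AA147 and vehicle set 1, and -0.44 between vehicle set 2 and vehicle set 1.

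Within vehicle set 2, libraries 4 and 5 were both above libraries 1 to 3 in 6 genes: Hspa1a, Hspa1b, Hsph1, Dnajb1, Hsp90ab1 and Bag3. The same held for 25.22% of all genes tested, and the choice of these libraries came from earlier results of these data, so no test is given. The summed Hspa1a and Hspa1b level was 56.33 and 57.21 FPKM in libraries 4 and 5, against 33.01, 27.51 and 32.58 FPKM in libraries 1 to 3. These 2 libraries thus lay inside the range of 49.43 to 57.33 FPKM over AA147 and vehicle set 1, and the other 3 near the 17.87 to 32.15 FPKM of tunicamycin and Ceapin-A7. For Hspa8, only library 5 stood high, and Hsp90ab1 in both libraries, at 295.66 and 323.44 FPKM, remained below the lowest value of 365.30 FPKM in AA147 and vehicle set 1. Libraries 4 and 5 had Y-linked sums of 0.04 and 75.7 FPKM and Hspa1a of 30.67 and 30.85 FPKM. Ceapin-A7 libraries 4 and 5, with Y-linked sums of 0.03 and 0.05 FPKM, had Hspa1a of 17.90 and 19.01 FPKM. Ceapin-A7 libraries 1 to 3, with sums of 73.4 to 78.0 FPKM, had 17.78 to 19.27 FPKM. The part of the Y-linked difference in Hspa1a was not tested, here or between tunicamycin and vehicle set 2.

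Several genes outside the 10, named after their values were seen, moved with those libraries. Junb, an immediate early factor, stood at 68.2 and 45.1 FPKM in vehicle set 2 libraries 4 and 5, against 16.7 to 24.5 FPKM in libraries 1 to 3. The gliosis genes Cd44 and Socs3 stood at 13.9 and 13.03 FPKM and at 15.4 and 7.26 FPKM in libraries 4 and 5, against 2.92 to 5.65 FPKM and 2.63 to 4.09 FPKM in libraries 1 to 3. The whole gliosis list of 9 genes did not separate them in sum, with 388 and 179 FPKM in libraries 4 and 5 against 94.8 to 290 FPKM in the others. None of the 9 was at 0. The part of these genes in the split of vehicle set 2 was not tested.

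The genes most like the 10 were chosen by correlation over all libraries, vehicle set 2 libraries 4 and 5 included. After each value was set relative to its group mean, the 6 genes most like the summed Hspa1a and Hspa1b level over the 25 libraries were P3h3, Phf21b, Sidt2, Fnbp1, Mtcl1 and Sfxn3, with Pearson r of 0.90 to 0.87. P3h3 stood at 13.58 and 13.92 FPKM in vehicle set 2 libraries 4 and 5, against 9.04 to 9.91 FPKM in libraries 1 to 3, and without libraries 4 and 5 its r was 0.64. Those most like the mean of the 10 genes were Ahnak2, Ccn1, Csrnp1, Zfp36, Glipr2 and Erc1, with r of 0.91 to 0.86; Ahnak2 kept an r of 0.83 over the 23 remaining libraries. The libraries share depth and composition, and these r values are descriptions.

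Several of the 10 genes varied together from library to library. Relative to the group means over 25 libraries, Hspa1a and Hspa1b had a Pearson r of 0.93, for copies between which the division of reads is uncertain, and 0.80 without vehicle libraries 4 and 5. Hspa8 had r of 0.61 with Hspa1a and 0.63 with Hspa1b, and 0.59 and 0.63 over the 23 libraries. It went with Hsph1, Hsp90aa1 and Hsp90ab1, at r of 0.81, 0.77 and 0.79, and at 0.74, 0.77 and 0.74 over the 23 libraries. The relation of Hspa1b with Bag3 was 0.74 over 25 libraries and 0.35 over 23, and that of Hspa1a with Dnajb1 was 0.55 and 0.01. Hspb1 had r of -0.13 with Hspa1a, and -0.43 over 23 libraries, and Hsf1 had r of -0.18 to 0.35 with the other 9. Hspa1a made up 53.9 to 64.6% of the summed Hspa1a and Hspa1b level, lowest in vehicle set 2 libraries 5 and 4.

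Among the chaperone lists around the 10 genes, most calls with tunicamycin were in the ER and mitochondrial lists. Of 8 ER counterparts, 8 rose, against 5.89% of all genes higher, with a median log2 difference of 1.24. Hspa5, the Hsp70 of the ER, stood at 1513, 495, 229, 581 and 427 FPKM in tunicamycin, against 110, 110, 106, 138 and 162 FPKM in vehicle set 2, and rose by 2.10 ± 0.28 (limma adjusted p = 4.13e-05). Hyou1, the ER relative of Hsph1, rose by 1.57 ± 0.25, Dnajb9, an ER J-domain protein, by 1.501 ± 0.23 and Hsp90b1, the Hsp90 of the ER, by 1.29 ± 0.22. Of 8 mitochondrial chaperones and proteases, 4 rose and 0 fell: Hspa9, the mitochondrial Hsp70, by 0.55 ± 0.11, the protease Lonp1 by 0.28 ± 0.07, the J-domain protein Dnaja3 by 0.26 ± 0.05 and the disaggregase Clpb by 0.17 ± 0.05. Hspa9 stood at 173, 101, 87.4, 121 and 99.3 FPKM in tunicamycin, against 68.7, 72.2, 70.1, 86.2 and 88.7 FPKM in vehicle set 2. Library 1 was thus highest in the ER and mitochondrial Hsp70 genes and lowest in the cytosolic ones.

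In the cytosol, 0 of 11 J-domain co-chaperones, 0 of 10 Hsp90 co-chaperones, 0 of 8 exchange factors and ubiquitin-linked genes and 0 of 5 tested small heat shock genes passed with tunicamycin. Among all genes 8.7% were called, a share at which such short lists hold few calls, so 0 calls do not show unchanged lists. Set directly against Ceapin-A7, Dnaja1, Cdc37, Fkbp5 and Hspbp1 of these lists were called lower in tunicamycin. Their log2 differences were -0.21, -0.11, -0.24 and -0.26. In that comparison 0 genes of these lists were called higher, and 13.3% of all genes were called. Dnaja1, Stip1, Cryab, Hspa4 and Hspa4l are named after their values were seen. Dnaja1, a J-domain partner of Hspa8, stood at 47.6, 57.1, 68.5, 60.6 and 61.4 FPKM in tunicamycin, against 60.3, 67.8, 63.4, 63.8 and 74.7 FPKM in vehicle set 2, a difference of -0.16 ± 0.07 (limma adjusted p = 0.127). Stip1, which joins Hsp70 to Hsp90, differed by -0.11 ± 0.07 (limma adjusted p = 0.344). Cryab, a small heat shock protein abundant in lens, differed by 1.01 ± 1.02 (limma adjusted p = 0.581), with 71.6 to 2217 FPKM in tunicamycin and 58.8 to 1459 FPKM in vehicle set 2. Of the 8 chaperonin subunits, Tcp1 rose by 0.13 ± 0.04, and 0 fell. Of the 6 tested other Hsp70 and Hsp110 genes, Hspa12b, a distant Hsp70 relative of endothelium, differed by -0.33 ± 0.09 and was called lower, and 0 rose. Hspa4 and Hspa4l, the other Hsp110 genes, differed by -0.04 and -0.04. Of the other heat shock factors, 0 of 3 passed. With Ceapin-A7 and with AA147, 0 genes of these lists were called.

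**Figure D4:**
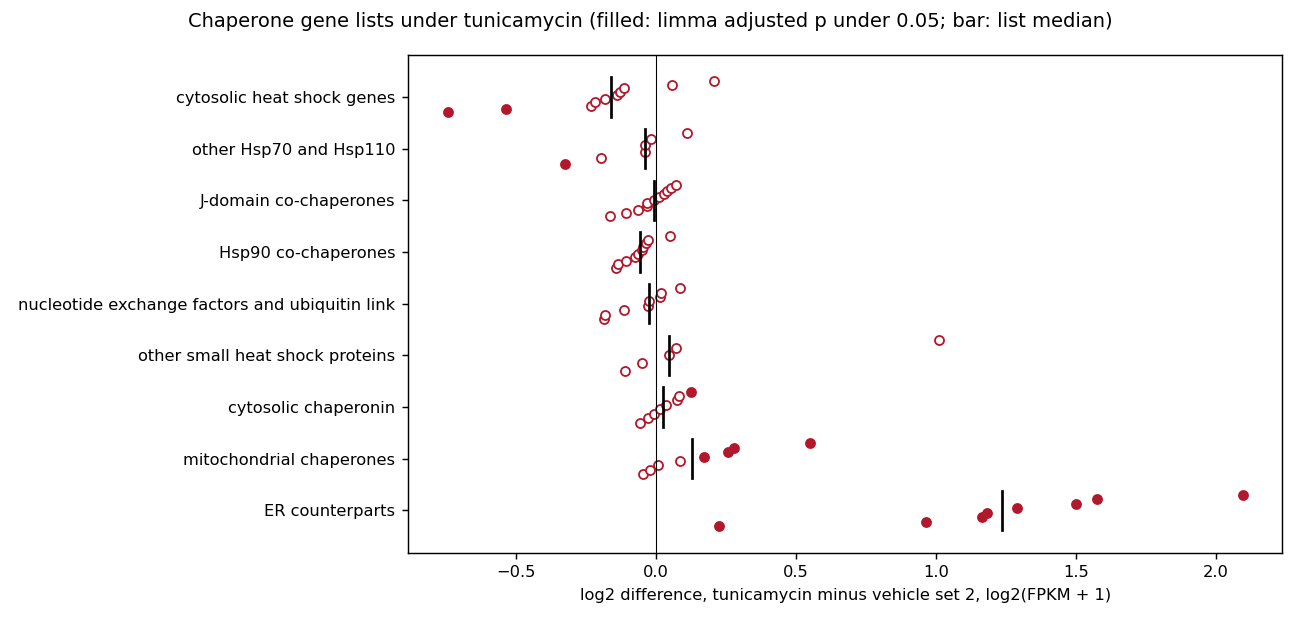
The log2 difference of tunicamycin from vehicle set 2 (x axis, on the log2(FPKM + 1) scale) for each tested gene of 9 chaperone lists, 1 list a row; filled points have a limma adjusted p under 0.05 and black bars are list medians. The ER counterparts lie at 0.23 to 2.10 with a median of 1.24, and the cytosolic heat shock genes at -0.75 to 0.21 with a median of -0.16.

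Other lists were counted in the same fit, where 5.89% of all genes were higher and 2.81% lower with tunicamycin. Of 14 tested immediate early genes, 2 rose, Ccn1 by 1.36 ± 0.22 and Dusp1 by 0.48 ± 0.13, and of 12 clock genes 2 were higher and 1 lower, Ciart by 0.62, Cry1 by 0.26 and Tef by -0.17. The cold-inducible genes Cirbp and Rbm3, which respond to temperature in the opposite way to heat shock genes, did not pass. Vascular markers differed: 5 of 9 endothelial genes were lower and 2 higher, and 5 of 9 tested pericyte and smooth muscle genes were lower. The endothelial sum was 60.8 to 90.3 FPKM in tunicamycin and 101 to 128 FPKM in vehicle set 2, and the pericyte and smooth muscle sum 14.2 to 21.04 FPKM in tunicamycin and 33.03 to 45.1 FPKM in vehicle set 2, with no marker at 0 in either group. Of 9 pigment epithelium markers, 4 were lower, with sums of 27.2 to 146 FPKM in tunicamycin and 126 to 284 FPKM in vehicle set 2. The part of vascular and pigment epithelium RNA in the Hspa1a and Hspa1b differences was not tested. The 12 lens, 10 rod, 8 Muller glia and 9 microglia markers had 0 calls each, against 8.7% of all genes. Their median log2 differences were 1.34, -0.07, -0.13 and -0.07. Lens sums varied from 6.51 to 14602 FPKM within tunicamycin. For lists this short, 0 calls do not show that the markers were unchanged. Of 8 cone markers, 1 was higher, Pde6c, by 0.43 ± 0.09. All 4 Y-linked genes tested were higher with tunicamycin (limma adjusted p = 0.0379 to 0.0492), as the Y-linked sums above show, and their part in the differences was not tested.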

How the data were processed

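RNA from mouse retina was sequenced as stranded mRNA libraries on a DNBSEQ instrument, per the labels' protocols. The deposited values are FPKM per gene and library, made by the authors; HISAT2 2.0.4, RSEM 1.2.18, DESeq2 1.4.5 and GRCm39 are named, without role or order, per the submitters' processing notes. No counts were used, so depth was estimated from the spacing of small FPKM values in genes with 1 transcript. FPKM depends on the other RNA of a library, such as lens RNA, and on how reads of Hspa1a and Hspa1b were divided.

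The 5 tables were joined on 18440 shared genes. Genes with 1 FPKM or more in 5 or more libraries (13117) were fitted as log2(FPKM + 1) with limma 3.58.1 in R 4.3.3, all 25 libraries in 1 fit, with a trended variance prior and Benjamini-Hochberg adjustment over all genes tested; adjusted p under 0.05 was called. Single genes were also compared by exact two-sided permutation tests (252 arrangements, unadjusted). The procedure was tested on simulated data, in which each gene had the same spread in every group. That test therefore does not cover groups of unequal spread, such as those of Hspa1a and Hspa1b. Promoters are RefSeq's on GRCm38.p6, available for 6 genes; coding sequences are the longest reading frames of GENCODE transcripts. All 10 genes are named throughout; from each pathway list the called genes are named, at most the 4 of largest difference, and for likeness the 6 genes of highest r. The genes and lists were chosen with earlier results of these data known. Alternatives changed the pseudocount, filter, scaling, variance prior, libraries, vehicle set and covariates.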

Additional observations from a re-analysis of the deposited data

Results flagged for a closer look

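Of 50 sets of 5 libraries checked, counting each of the 10 genes in each of the 5 groups, 3 had 1 library far from the others; chance alone marks about 1 set in 20. Hspa1a in tunicamycin library 1 was 11.55 FPKM, against 16.0 to 17.55 FPKM in the other 4 libraries of that group. Hspa8 in AA147 library 4 was 630.3 FPKM, against 727.53 to 764.88 FPKM in the other 4. Hspa8 in vehicle set 2 library 5 was 718.35 FPKM, against 534.13 to 566.63 FPKM in the other 4.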

How the results depend on the processing

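Depth is estimated, collection times of the vehicles are not given, and libraries are not stated to be separate animals. Among single genes, 282 of 300 differences with 1 library left out, and 295 of 356 under the other alternatives, kept direction and side of the threshold; the cause of the changes below was not tested. With tunicamycin, 2 genes were called; the number was 4 with median-ratio scaling (Hspa8 and Hsp90ab1 added), 3 with quantile normalization (Hspa8 added), 0 with the compared groups alone, 0 with tables of 1 gene list, 0 without vehicle set 2 libraries 4 and 5, 7 with the mean of both vehicle sets, 8 with vehicle set 1, and 2 to 4 with 1 library left out, 4 without tunicamycin library 3. With Ceapin-A7 the number was 0, but 7 with both vehicle sets and 8 with vehicle set 1; with AA147 it was 0, but 2 with both and 7 with vehicle set 2. Between tunicamycin and Ceapin-A7 it was 0, 1 with median-ratio scaling (Hsp90ab1) and 0 to 1 with 1 library left out (Hsp90ab1 without tunicamycin library 3, Hsf1 without tunicamycin library 5); between the changes with tunicamycin and AA147 it was 0 to 1, with Hspa1a called without vehicle set 2 library 2.

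These log2 differences changed sign. Without vehicle set 2 libraries 4 and 5, Hsph1 was 0.043 and Bag3 0.16 with tunicamycin, and Hspa8 0.0037, Hsph1 0.12, Hsp90ab1 0.068 and Hsf1 0.00034 with Ceapin-A7. Against both vehicle sets, Hsf1 was -0.02 with tunicamycin, Hsp90aa1 -0.057 with Ceapin-A7, and Hspa8 0.13, Hsp90ab1 0.22 and Hspb1 -0.13 with AA147. Against the other vehicle set, Hsf1 was -0.091 with tunicamycin, Hsp90aa1 -0.13 and Hspb1 0.18 with Ceapin-A7, and Hspa8 0.30, Hsp90aa1 0.028, Hsp90ab1 0.45 and Hspb1 -0.37 with AA147. Hsp90aa1 was -0.052 with Ceapin-A7 under quantile normalization, and Hspa1b -0.0081 with AA147 with the lens covariate, chosen after seeing the data. With 1 library left out, the Ceapin-A7 ranges were -0.097 to 0.060 for Hsph1, -0.017 to 0.040 for Hsp90aa1 and -0.066 to 0.027 for Hsp90ab1; the AA147 ranges were -0.0021 to 0.058 for Hspa1a, -0.0045 to 0.058 for Hspa1b, -0.059 to 0.010 for Hspa8, -0.010 to 0.086 for Hsph1, -0.029 to 0.012 for Hsp90ab1 and -0.0066 to 0.25 for Hspb1.

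Over all genes, tunicamycin calls numbered 1141, but 86 with the compared groups alone, 389 with tables of 1 gene list, 611 without tunicamycin library 1, 1985 without library 3, 5743 with both vehicle sets and 7381 with vehicle set 1. Ceapin-A7 calls numbered 0, but 4384 with both sets and 6676 with vehicle set 1, and AA147 calls 0, but 2948 with both and 6016 with vehicle set 2. The replicate numbers do not pair the libraries: for tunicamycin and vehicle set 2, same-numbered deviations correlated at -0.426 to 0.396. With the replicate block, 2 genes were called with tunicamycin, 0 with Ceapin-A7 and 0 with AA147.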
